A study of Drosophila melanogaster with 9 samples.

Results

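CG16957, Adh, Adhr and the antisense RNA gene asRNA:CR45330 are 4 genes of chromosome arm 2L, of 17559 genes counted in ovary RNA of Drosophila melanogaster. CG16957, Adh and asRNA:CR45330 were chosen by their counts, which were lower in flies mutant for DPLG1 than in both other groups, and Adhr was added as the gene that shares its position with Adh. The gene mutated in those flies, DPLG1 or CG12253, lies on the same arm at 2L:10987806-10989241, plus strand. Ovary RNA was compared between 3 groups of 3 libraries each: flies mutant for DPLG1 (replicates 22, 5 and 7), flies mutant for DPLG4 (replicates 15, 3 and 7) and control flies, whose titles give the strain w1118 (replicates 1, 2 and 3). Both DPLG genes derive from transposases of the PIF family of DNA transposons. Titles of the mutant libraries carry the letters KO, for knockout, before the number. The numbers are called replicates here, but whether they mark replicates or separate mutant lines is not given. The sources used here do not give the alleles, how they were made, the genetic background of the mutants or the age of the flies. Whether the mutants share their background with w1118 is thus not known. All samples were total RNA of whole ovaries, so that germline and somatic cells were measured together.

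Adh encodes alcohol dehydrogenase, the enzyme that turns ethanol into acetaldehyde in flies, and it is best known from the fat body and gut. Its RNA starts at a distal and at a proximal promoter that are used at different stages. Adhr lies directly downstream of the Adh coding part and is translated from long transcripts that begin at the Adh promoters, so that 1 RNA can carry both proteins. Antisense RNA genes are noncoding genes annotated on the strand opposite to another gene. CG16957 has only an annotation number, and no function is stated for it here.

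Gene counts per library ran from 18078883 to 95751320. A floor of 3 counts corresponded to 0.0311 CPM (counts scaled to library size) in the deepest library and to 0.172 CPM in the shallowest. Control replicate 1 stood apart, with 70.7% of its total on the line for reads that did not align uniquely, where control replicate 3 had 7.61%. The targeted gene followed the labels: CG12253 had 0, 0 and 1 counts in DPLG1 mutant replicates 22, 5 and 7, and at least 943 counts in each of the other 6 libraries. The germline genes nanos, osk, otu, orb and aub summed to 2543 to 3047 CPM per library, so these germline markers were present in all 9. The germline gene vas found no matching line and was not read.

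CG16957 (FBgn0032519) lies at 2L:13395360-13396184 on the minus strand, 2.41 Mb from CG12253. Both of its annotated transcripts are single exons, of 825 and 778 bases, that code for 192 residues and share no exon base with another gene. In DPLG1 mutant replicates 22, 5 and 7 it stood at 0.142, 0.0575 and 0.0889 CPM, from 12, 3 and 4 counts. In DPLG4 mutant replicates 15, 3 and 7 it stood at 6.15, 5.06 and 3.15 CPM, from 373, 489 and 160 counts. In control replicates 1, 2 and 3 it stood at 3.37, 3.11 and 2.63 CPM, from 79, 290 and 46 counts. Every DPLG1 mutant library lay below every other library, and the DPLG4 mutant and control libraries overlapped. From summed counts the control level was 29.5 times that of DPLG1 mutants, with a 95% exact interval of 18.7 to 49.6. The DPLG4 mutant level was 47.0 times that of DPLG1 mutants (interval 29.9 to 78.3). These and all other ratio intervals cover counting error only. In ovary RNA of this kind, fewer cells of a type and less RNA per cell cannot be told apart. Because the gene was chosen for this pattern, the values are a description and no test is given.

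The residual counts were few but not nil. At the control mean, DPLG1 mutant replicates 22, 5 and 7 would have held 256, 158 and 137 counts of CG16957. The control ratio was 25.0 to 42.9 when a DPLG1 mutant library was left out, the highest value coming without replicate 22. It was 29.0 to 30.2 when a control was left out, and 29.0 without control replicate 1.

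asRNA:CR45330 (FBgn0266869), a noncoding gene, lies at 2L:13241807-13244724 on the plus strand, 2.25 Mb from CG12253. It stood at 0.178, 0.172 and 0.200 CPM in DPLG1 mutant replicates 22, 5 and 7, from 15, 9 and 9 counts. In DPLG4 mutant replicates 15, 3 and 7 it stood at 1.98, 1.93 and 1.48 CPM, and in control replicates 1, 2 and 3 at 2.34, 1.47 and 1.77 CPM. The DPLG1 mutant libraries were close to each other and below all others, while the ranges of DPLG4 mutants and controls overlapped. The control level was 9.14 times that of DPLG1 mutants (interval 6.32 to 13.6), and the DPLG4 mutant level 10.1 times (interval 7.06 to 14.9). By these summed counts it kept a larger share of its level in DPLG1 mutants than CG16957. The intervals of the 2 genes did not overlap, but they leave out the spread between libraries, and the difference was not tested. All 3 DPLG1 mutant libraries were above the floor of 3 counts for asRNA:CR45330. Without control replicate 1 the control ratio was 8.34.

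Adh (FBgn0000055) lies at 2L:14615552-14618902 on the plus strand, 3.63 Mb from CG12253, inside the span of osp (outspread) on the opposite strand. It had 1, 0 and 0 counts in DPLG1 mutant replicates 22, 5 and 7, all under the floor. In DPLG4 mutant replicates 15, 3 and 7 it had 24, 34 and 24 counts, which are 0.396, 0.352 and 0.472 CPM. In control replicates 1, 2 and 3 it had 4, 38 and 6 counts, which are 0.170, 0.407 and 0.343 CPM. Adh was therefore a low count in every group, and the shallow controls carry little weight. At the control mean, DPLG1 mutant replicates 22, 5 and 7 would have held 25.9, 16.0 and 13.8 counts. The control ratio of 64.9 rests on 1 count in DPLG1 mutants, and its interval runs from 11.1 to 2617. Without control replicate 1 it was 72.1 (interval 12.3 to 2912), and without DPLG1 mutant replicate 22, which holds that count, the control level was at least 5.79-fold higher, with the floor of 3 counts taken per library.

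**Figure D1:**
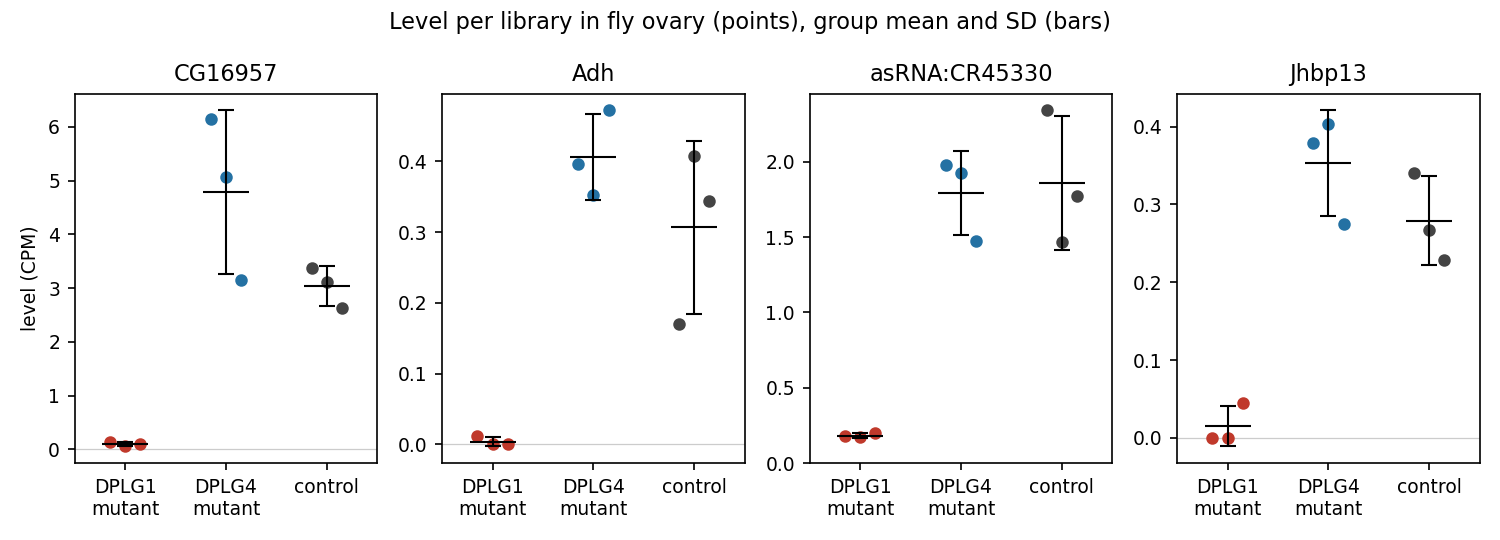
Level in CPM (vertical axes, linear, a separate scale per panel) of CG16957, Adh, asRNA:CR45330 and the neighbouring gene Jhbp13 in each library, with the mean and SD of the 3 libraries of a group. In each panel the 3 DPLG1 mutant libraries lie below the other 6, and the DPLG4 mutant and control libraries overlap.

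What the Adh count measures is narrower than its name. In the reference annotation Adh has 5 transcripts and Adhr 3, and all 2116 exon bases of Adhr are also exon bases of Adh. Only 138 of the 2254 exon bases of Adh (6.12%) belong to Adh alone. They lie at 2L:14616129-14616266, upstream of the coding part, in 1 of the 5 Adh transcripts, where that transcript keeps a stretch that the others splice out or do not reach. Reads from the rest of both genes fall on bases of both, and gene counting of this kind sets such reads aside as ambiguous.

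Its neighbour Adhr (FBgn0000056) had 0 counts in all 9 libraries, so no level, fold or test can be given. It has no base of its own, with or without strand. The same held for 431 genes in the files, of which 10 (2.32%) had any count in any library, against 78.8% of the 16688 genes with bases of their own. A count of 0 for Adhr therefore says nothing of its RNA in any group. The ambiguous lines held 1.17% of the total in control replicate 1 and 3.47% to 3.68% in the other libraries, and how many of those reads came from Adh and Adhr is not recorded in the files. The low Adh values of DPLG1 mutants concern the 138 bases, and the level of the main Adh transcripts was not measured by these counts.

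The counts also show how strand was treated. For 134 genes every exon base is also an exon base of another gene. Some or all are shared only with genes on the opposite strand, so these genes have bases of their own only if strand is used. Of these, 1 (0.746%) had any count, close to the share of genes with no base of their own at all. Counts that used strand would have left those genes their bases, so the values are those of counting without strand.

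asRNA:CR45330 is touched by this as well. Of its 590 exon bases, 192 are shared with snRNA:U2:34ABc on the opposite strand, a U2 spliceosomal RNA gene that had 0 counts in every library. The 398 bases left lie in 3 pieces of 208, 27 and 163 bases. The first piece is also covered by asRNA:CR46479 on the opposite strand, which has no line in the files, so RNA from either strand could have been counted there. The annotated intron of 1 of its 2 transcripts, 2L:13242015-13244342, matches a reference copy of the BS retrotransposon, BS{}358 at 2L:13242015-13244341, to within 1 base. No counts for that element were among the values used here.

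**Figure D2:**
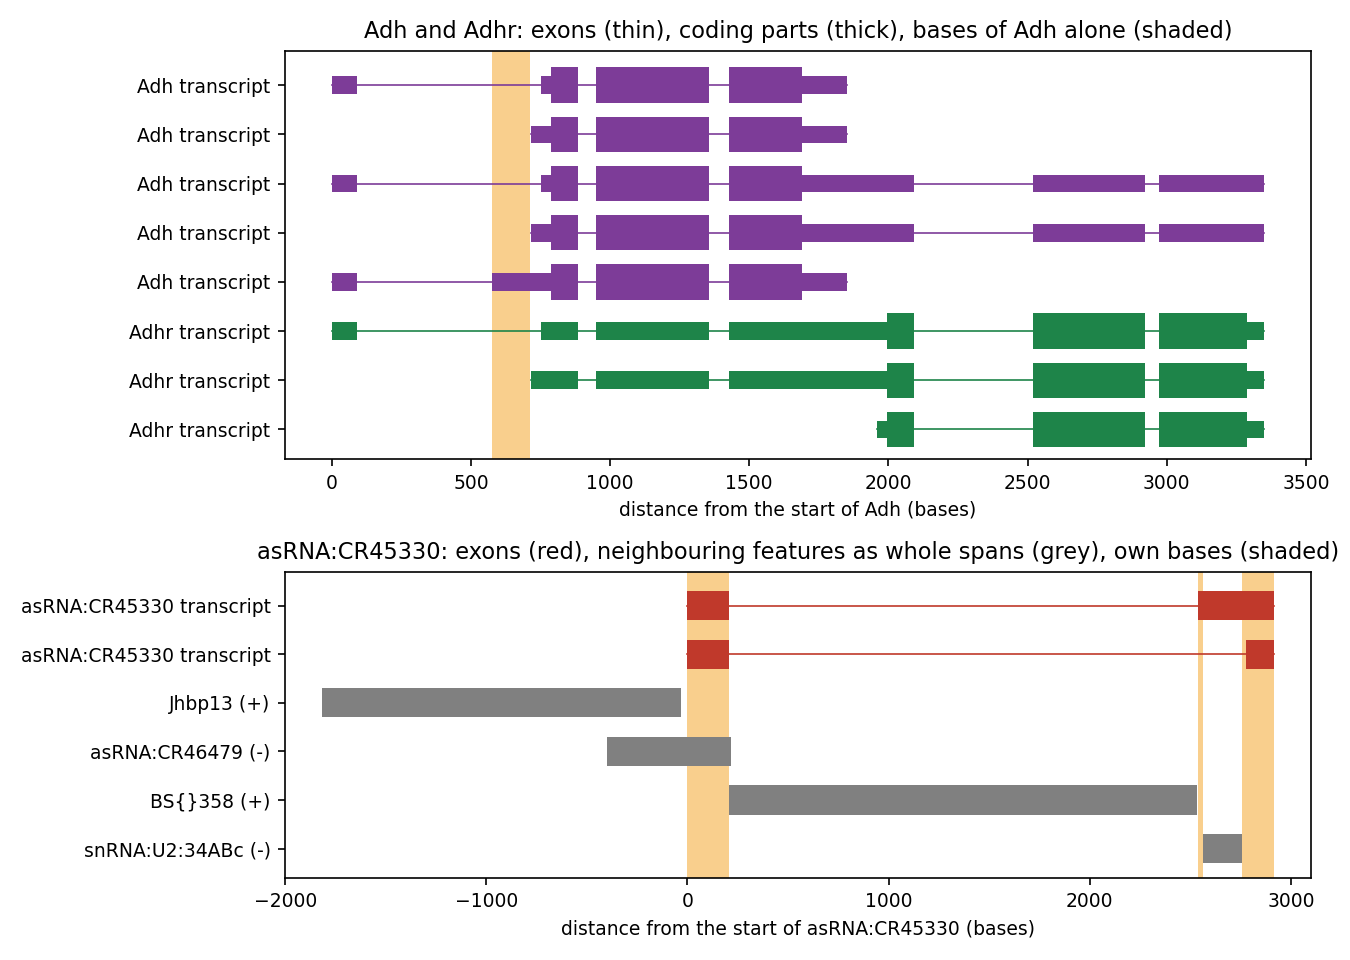
Transcripts of Adh and Adhr (top) and of asRNA:CR45330 with the features around it (bottom), with distance in bases from the gene start on the horizontal axes. Shaded bands mark the bases that belong to 1 gene of the files alone: 138 bases for Adh, none for Adhr, and 208, 27 and 163 bases for asRNA:CR45330.

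Levels of different genes can be compared only per length. Per kilobase of bases of its own, asRNA:CR45330 stood at 4.68 ± 1.12 CPM in controls (SD, n = 3), CG16957 at 3.68 ± 0.451 and Adh at 2.22 ± 0.887. The control libraries of asRNA:CR45330 and CG16957 overlapped (3.69 to 5.89 against 3.19 to 4.08), and those of CG16957 and Adh did not (1.24 to 2.95 for Adh). In DPLG4 mutants the order by mean was CG16957, asRNA:CR45330 and Adh, at 5.80 ± 1.84, 4.51 ± 0.695 and 2.95 ± 0.441 CPM per kilobase, and again only the Adh libraries stood apart from the other two. On the same scale CG12253 had 49.1 ± 6.28 CPM per kilobase in controls. For Adh the value is that of the 138 bases and not of the gene. The loss of reads that cross the edge of a short stretch, which differs with read length, was not tested.

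Across all genes, the edgeR quasi-likelihood test called 4 genes lower in DPLG1 mutants than in controls at a Benjamini-Hochberg adjusted p under 0.05. They were CG12253, CG16957, asRNA:CR45330 and Adh, so 3 of the 4 genes described here, where 0.0475% of the 8427 tested genes were called lower. This call chose them, and the share is given only as the background. For Adh the call was lost in 7 of 12 alternatives, with an edgeR adjusted p of up to 0.245. With only the 6 libraries of this comparison the filter dropped Adh, so its row here depends on the DPLG4 mutant libraries. DPLG1 mutant libraries lay wholly below control libraries for 13.9% of tested genes, wholly above them for 15.9%, and below all 6 other libraries for 1.78%. Lying below the control libraries was thus not rare in itself.

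A stricter pattern was at most 3 counts in each DPLG1 mutant library and over 3 counts in each of the other 6. Among 7798 genes that could show it, 3 did (0.0385%): CG12253, Adh and Jhbp13. CG16957 and asRNA:CR45330 missed it with up to 12 and 15 counts in a DPLG1 mutant library. With a limit of 10 counts only CG12253 showed it. Measured by fold, 6 tested genes (0.0712%) lay below all 6 other libraries and at least 5-fold below both group means. They were CG12253, Adh, CG16957, Jhbp13 and asRNA:CR45330 on 2L, and CG30076 on 2R (0.0410 against 0.459 CPM in DPLG4 mutants and 0.315 CPM in controls). These counts use the same contrast as the choice of the genes and are a description.

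Jhbp13, whose name stands for a juvenile hormone binding protein, is the nearest gene to asRNA:CR45330. It lies on the same strand and ends 0.034 kb before the antisense RNA gene starts. It had 0, 0 and 2 counts in DPLG1 mutant replicates 22, 5 and 7, against 23, 39 and 14 in DPLG4 mutant replicates 15, 3 and 7 and 8, 25 and 4 in control replicates 1, 2 and 3. Jhbp13 fell relative to DPLG4 mutants (log2 fold change -4.71, SE 0.76, edgeR adjusted p = 0.0299). Libraries of DPLG1 mutants lay below all others. Against controls Jhbp13 did not pass (log2 fold change -4.37, SE 0.80, edgeR adjusted p = 0.134), and neither did DPLG4 mutants against controls (log2 fold change 0.34, SE 0.53, adjusted p = 0.780), whose libraries overlapped. The fitted sizes rest on 2 counts in DPLG1 mutants and depend on the small count that edgeR adds. The call against DPLG4 mutants was lost in 9 of 14 alternatives (adjusted p up to 0.161), among them leaving out DPLG1 mutant replicate 22 or 5, any DPLG4 mutant library or any control, while against controls Jhbp13 passed without DPLG1 mutant replicate 7 (adjusted p = 0.0354). Reads that continue from Jhbp13 into the antisense RNA gene cannot be assigned from these counts.

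The next gene of the same family, Jhbp14, lies 2.51 kb from asRNA:CR45330. It stood at 3.70, 2.36 and 3.33 CPM in DPLG1 mutants and at 1.88, 2.70 and 3.21 CPM in controls, with overlapping ranges (log2 fold change 0.28, SE 0.34, edgeR adjusted p = 0.646).

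The 5 nearest tested genes on each side of each gene, with osp, gave 31 neighbours that the choice of the 4 genes did not use. Against controls 1 of the 31 was called in DPLG1 mutants and it was higher, where 0.107% of tested genes were called in either direction and 0.0593% were called higher. The median log2 fold change of the 31 was 0.12, against 0.01 for all tested genes, with 12 negative and 19 positive values. At an unadjusted p under 0.05 there were 4 lower and 5 higher, where 9.85% and 7.13% of tested genes were, and DESeq2 called 4 (3.32% of tested genes). In DPLG4 mutants against controls none of the 31 passed edgeR, where 0.427% of tested genes did. At an unadjusted p under 0.05 there were 1 lower and 2 higher (3.45% and 7.32% of tested genes), and DESeq2 called 3 (2.71% of tested genes). The 3 comparisons share libraries, so their counts are not independent of each other. Between the mutants 1 was lower (Jhbp13) and 1 higher in DPLG1 mutants, where 0.629% of tested genes were called, 0.309% lower and 0.32% higher.

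The higher gene was Drep4, which encodes a DNase related to those that cut DNA in dying cells and lies 39.2 kb from asRNA:CR45330. It stood at 28.1, 25.4 and 28.3 CPM in DPLG1 mutants, 14.5, 12.9 and 11.2 CPM in DPLG4 mutants and 8.70, 11.8 and 11.9 CPM in controls. It rose 2.52-fold over controls (edgeR adjusted p = 0.0151) and 2.12-fold over DPLG4 mutants (edgeR adjusted p = 0.0135). Of its 2146 exon bases, 41.1% are its own without strand. The call against controls was lost without DPLG1 mutant replicate 22 or 5, DPLG4 mutant replicate 3 or control replicate 2 or 3 (adjusted p 0.0524 to 0.0889), and that between the mutants without DPLG1 mutant replicate 22 or 7 or DPLG4 mutant replicate 3 (adjusted p 0.0583 to 0.0921).

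Of the genes directly beside CG16957, none passed edgeR. RpL24, which encodes a protein of the large ribosomal subunit and whose start lies 0.229 kb away, stood at 1038 ± 123 CPM in DPLG1 mutants and 872 ± 26.7 CPM in controls (SD, n = 3, log2 fold change 0.25, SE 0.15, edgeR adjusted p = 0.366). CG7110, 2.81 kb away on the other side, had 96.7 ± 4.23 CPM in DPLG1 mutants and 84.0 ± 7.52 CPM in controls (edgeR adjusted p = 0.370). For both genes all DPLG1 mutant libraries lay above all control libraries. The DPLG4 mutant libraries did so too for RpL24 (1066 ± 220 CPM, log2 fold change 0.29 against controls, edgeR adjusted p = 0.533). For CG7110 they overlapped the controls (81.0 ± 10.8 CPM). CG10859, the closest gene on that side at 0.208 kb, had at most 7 counts in any library and was not tested. The antisense RNA gene asRNA:CR44600, 2.67 kb away, had 11, 2 and 6 counts in DPLG1 mutants against 47, 33 and 10 in DPLG4 mutants and 7, 27 and 3 in controls, with a log2 fold change of -1.34 (SE 0.64, edgeR adjusted p = 0.306) against controls. Only 33.0% of its exon bases are its own without strand, and 27.8% of those of asRNA:CR44599. The latter had 5.02 CPM in DPLG1 mutants, 4.49 CPM in DPLG4 mutants and 2.68 CPM in controls (edgeR adjusted p = 0.197 for the first against the last). Hacd2, a gene named for a hydroxyacyl-CoA dehydratase, had 31.0, 28.7 and 19.7 CPM in the same order (edgeR adjusted p = 0.146). DESeq2 called both genes in each mutant against control.

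Around Adh only osp could be tested within 25 kb. The other genes in the files there were lncRNA:CR43411, with at most 4 counts in any library, and 3 copies of a proline tRNA gene (tRNA:Pro-AGG-1-2, tRNA:Pro-AGG-1-3 and tRNA:Pro-AGG-1-4). The tRNA copies had no counts, which says nothing of their RNA where reads of like copies are not counted. osp stood at 37.1, 47.9 and 46.7 CPM in DPLG1 mutants, 40.0, 49.0 and 68.6 CPM in DPLG4 mutants and 50.8, 68.3 and 83.2 CPM in controls. Its DPLG1 mutant and control libraries did not overlap, but the difference did not pass (log2 fold change -0.62, SE 0.23, edgeR adjusted p = 0.277). No exon base of osp is an exon base of Adh, so the 138 bases that belong to Adh alone lie between exons of osp. Counted without strand, unspliced osp RNA there could have been assigned to Adh, which was not tested. Rab14, a gene for a small GTPase of membrane traffic 257 kb from Adh, stood at 88.5, 81.2 and 84.3 CPM in DPLG1 mutants against 115 to 126 CPM in controls and 110.1 to 133 CPM in DPLG4 mutants. Rab14 did not pass edgeR against controls (log2 fold change -0.51, SE 0.10, adjusted p = 0.156) or against DPLG4 mutants (log2 fold change -0.50, SE 0.10, adjusted p = 0.0864), while DESeq2 called it in both (adjusted p = 9.33e-06 and 1.15e-05).

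The genes whose log2 CPM across the 9 libraries was most like that of each of the 3 genes were mostly on the same arm. Likeness was measured by Pearson's r over all 9 libraries, which fall into DPLG1 mutants and the rest, so it restates the contrast that chose the genes. The most alike gene was CG12253 in each case, with r of 0.982 for CG16957, 0.966 for Adh and 0.992 for asRNA:CR45330. Rab14 followed for CG16957 and asRNA:CR45330 (r of 0.970 and 0.964) and came after dao for Adh (0.957 for dao, 0.924 for Rab14). dao, at 4.26 Mb from CG12253, stood at 1.20, 0.939 and 0.734 CPM in DPLG1 mutants and between 2.56 and 5.21 CPM in the other 6 libraries. The others among the 5 most alike were Plzf (1.06 Mb from CG12253), Jhbp13 and CG18480 (4.64 Mb) on 2L, and CG14657 and Takl2 on 3R. Plzf, for instance, stood at 9.65, 9.54 and 9.76 CPM in DPLG1 mutants and between 12.8 and 16.5 CPM elsewhere.

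By distance, the genes fall into a stretch between 2 and 4 Mb from CG12253 towards higher coordinates. Leaving out the 3 genes themselves, 8 of the 96 tested genes in that stretch (8.33%) lay below all 6 other libraries in DPLG1 mutants, against 18 of 1350 (1.33%) in the rest of 2L and 1.73% over all tested genes. They were Jhbp13, asRNA:CR44600, b, Arpc1, Rab14, Yip1d1, Rsph1 and CG31769, and none of them was called against controls (edgeR adjusted p from 0.134 to 0.344). b, which encodes an aspartate decarboxylase and whose loss darkens the body, stood at 0.938 CPM in DPLG1 mutants, 1.82 CPM in DPLG4 mutants and 1.97 CPM in controls. The median log2 fold change of the stretch was -0.03 in DPLG1 mutants and -0.04 in DPLG4 mutants, and at an unadjusted p under 0.05 it held 13 lower and 12 higher genes (13.5% and 12.5%), where the rest of 2L had 7.11% lower and 8.74% higher and all tested genes 9.85% and 7.13%. Its limits were set after the positions of the genes were seen, and no test is given. Of all tested genes of 2L, 2.07% lay below all 6 other libraries. The share was 1.97% on 2R, 2.32% on X, 1.72% on 3L, 1.16% on 3R and 0% of the 77 genes of chromosome 4.

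**Figure D3:**
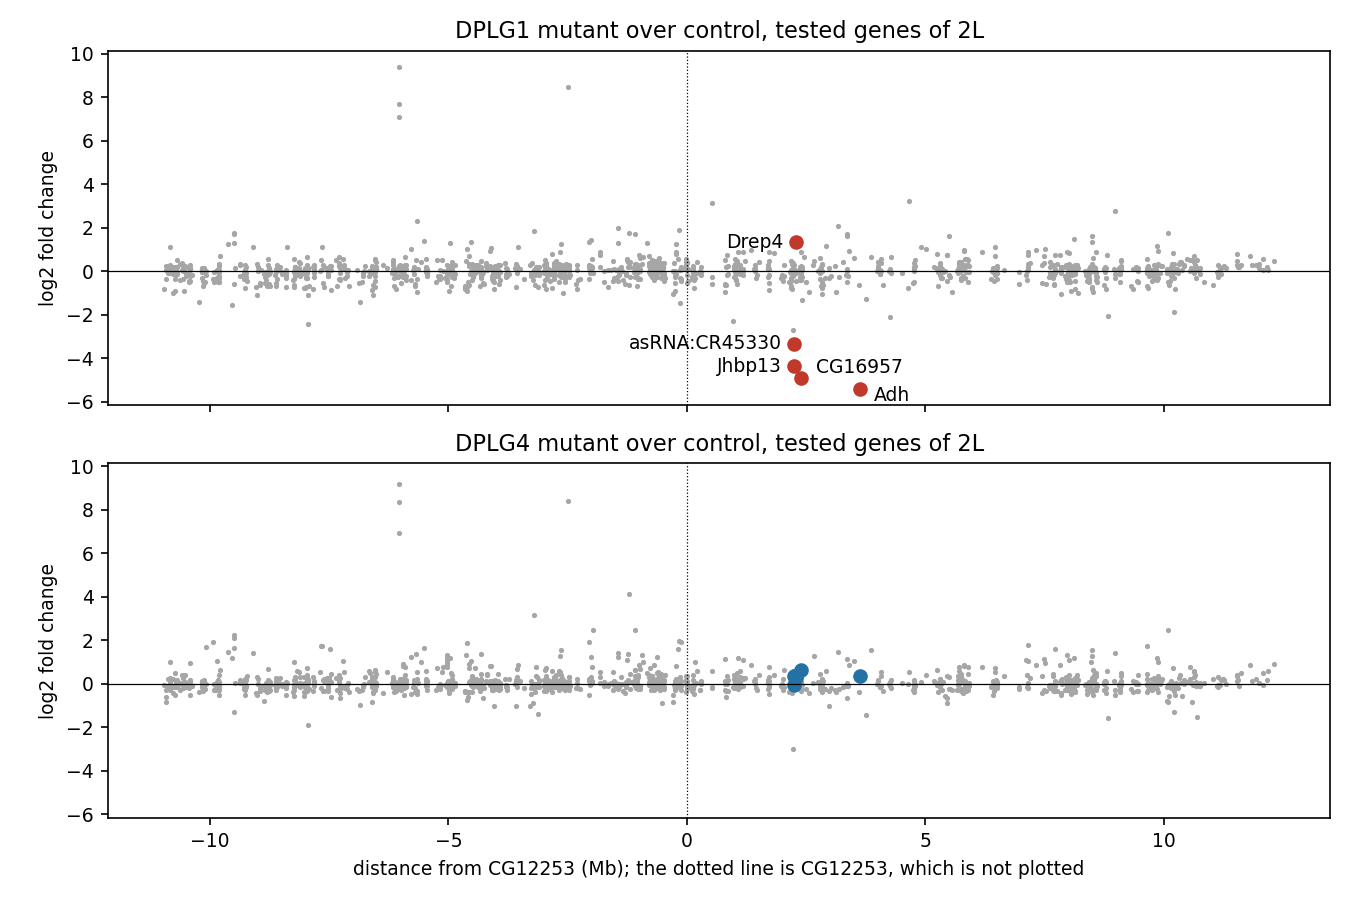
Log2 fold change (vertical axes) of every tested gene of 2L except CG12253 against its distance from CG12253 in Mb (horizontal axis), for DPLG1 mutants (top) and DPLG4 mutants (bottom) over control, with the named genes as large points. CG16957, asRNA:CR45330, Jhbp13 and Adh lie between -5.42 and -3.32 at 2.25 to 3.63 Mb in DPLG1 mutants and between -0.04 and 0.66 in DPLG4 mutants.

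Of 11 other listed genes of ethanol breakdown and use, all were tested and none passed edgeR in DPLG1 mutants against controls. At an unadjusted p under 0.05 the count was also 0, as was that of DESeq2. Over all tested genes the called shares were 0.107% with edgeR and 3.32% with DESeq2, so that 0 of 11 is near the background. Before adjustment 9.85% of tested genes were lower and 7.13% higher. Their median log2 fold change was -0.01, against 0.01 for all tested genes, with 6 negative and 5 positive values. Aldh, the mitochondrial aldehyde dehydrogenase that takes up the acetaldehyde made by Adh, stood at 347 ± 51.0 CPM in DPLG1 mutants and 339 ± 37.7 CPM in controls (SD, n = 3, edgeR adjusted p = 0.905). AcCoAS, which turns acetate into acetyl-CoA, had 35.0 ± 4.92 CPM in DPLG1 mutants and 30.5 ± 3.38 CPM in controls (edgeR adjusted p = 0.485). Fdh, a class III alcohol dehydrogenase that acts on the formaldehyde adduct of glutathione, had 296 ± 31.3 and 298 ± 81.6 CPM in the same groups (edgeR adjusted p = 0.979). In DPLG4 mutants against controls and between the mutants edgeR called none of the 11 either. At an unadjusted p under 0.05 there was 1 lower in the former, where 3.45% of tested genes were, and 1 higher in the latter, where 3.65% were. DESeq2, which called 2.71% of tested genes in the former and 2.73% in the latter, called Sodh2, a sorbitol dehydrogenase gene, in both. Sodh2 stood at 5.52 ± 0.566 CPM in DPLG1 mutants, 3.21 ± 0.143 CPM in DPLG4 mutants and 4.65 ± 0.547 CPM in controls.

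Of the related short-chain dehydrogenase genes none was tested. Fbp2 and Antdh had at most 1 and 3 counts in any library. Pdh, a photoreceptor dehydrogenase gene, had 16, 8 and 5 counts in DPLG1 mutant replicates 22, 5 and 7, 11, 15 and 8 in DPLG4 mutant replicates 15, 3 and 7, and 2, 18 and 1 in control replicates 1, 2 and 3. These are 0.111 to 0.189, 0.155 to 0.182 and 0.0572 to 0.193 CPM, with overlapping ranges.

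Because Adh is known from fat body and gut, markers of both tissues were read beside it. The 9 fat body genes summed to 44.3 to 55.4 CPM in DPLG1 mutants, 40.2 to 61.0 CPM in DPLG4 mutants and 48.2 to 72.7 CPM in controls, nearly all of it from apolpp. Fbp1 was at 0 in DPLG1 mutants and controls, Fbp2 was at 0 in both mutants, and to was at 0 in all libraries. In DPLG4 mutant replicate 3 Fbp1 had 17 counts and Lsp2 had 32. Lsp1beta had 0.235, 0.752 and 0.236 CPM in DPLG1 mutants, DPLG4 mutants and controls. Lsp1gamma stood at 0.438, 0.460 and 0.778 CPM in DPLG1 mutants, all below the controls at 0.801 to 1.07 CPM (edgeR adjusted p = 0.290). Summed levels of the 8 gut genes were 0.118, 0.402 and 45.5 CPM in the libraries of DPLG1 mutants (22, 5 and 7), 9.07, 30.6 and 0.0197 CPM in those of DPLG4 mutants (15, 3 and 7) and at most 0.0964 CPM in controls. By their sums the groups overlapped for fat body. For gut all 3 DPLG1 mutant libraries were above the controls, but replicate 22, at 0.118 CPM, was close to control replicate 2 at 0.0964 CPM. DPLG1 mutant replicate 7 had the highest gut sum and 0 counts of Adh. Whether gut RNA contributed to the Adh counts was not tested. The 2 female tract genes Send1 and Send2 summed to at most 0.154 CPM and were at 0 in controls. The 6 follicle cell genes summed to 605 to 1196 CPM in DPLG1 mutants, 888 to 1610 CPM in DPLG4 mutants and 264 to 558 CPM in controls. The 4 hemocyte genes summed to 7.85 to 8.53, 7.40 to 9.25 and 4.39 to 7.44 CPM in the same order, and the 5 muscle genes to 64.5 to 82.2, 72.2 to 83.6 and 58.7 to 72.6 CPM. The members did not move together. Most of the follicle cell sum came from the eggshell genes Cp36 (338 CPM in DPLG1 mutants and 109 CPM in controls), Cp15 (344 and 164 CPM) and Vm26Aa (113 and 129 CPM). In the same groups tj, a transcription factor gene of somatic ovary cells, had 5.59 and 5.42 CPM and Vm32E 5.97 and 7.32 CPM. Fas3 had 4.33 and 2.16 CPM, with all DPLG1 mutant libraries above the controls (edgeR adjusted p = 0.334). Most of the hemocyte sum came from srp (7.49 and 4.81 CPM). Hml, a defining hemocyte gene, had 0.491 and 1.24 CPM with all DPLG1 mutant libraries below the controls, and eater had 0.0405 and 0.0703 CPM. NimC1 went the other way from Hml, with 11, 19 and 12 counts in DPLG1 mutant replicates 22, 5 and 7 (0.254 CPM). It had at most 3 counts in any other library (0.0107 CPM in controls) and was not tested. NimC1 lies on 2L, 2.98 Mb from CG12253, inside the stretch of 2 to 4 Mb. None of these genes that were tested passed edgeR against controls, with the smallest adjusted p at 0.228 for Cp36. The part of these shifts in the levels of the 4 genes was not tested.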

How the data were processed

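For each library the authors deposited unnormalized counts of 17559 genes, followed by 5 summary lines. FastQC, STAR 2.5, HTSeq and DESeq2, and the builds BDGP6 and GRCh37, are named per the submitters' processing notes. Their roles, the annotation release, the strand setting and the read length were not found in the sources used here. Summary lines made up 72.0% of control replicate 1 and 11.5% to 13.8% of the others, and were left out of library sizes and tests.

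Exons, names and positions are those of Ensembl's BDGP6.54 gene set (release 115), which places 17253 of the identifiers. It may differ from the authors' annotation. Bases of a gene's own are exon bases that are exon of no other gene in the files. No genome sequence was used.

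Counts were fitted in R 4.3.3 with edgeR 4.0.16: filterByExpr by group (8427 genes), TMM scaling and a robust quasi-likelihood fit of group on all 9 libraries. CPM uses TMM library sizes. Ratios are of summed counts with 95% exact (Clopper-Pearson) intervals. SE is the log2 fold change over the square root of F. Groups and replicate names came from the titles; the libraries are called biological replicates per the labels, and replicates of a group correlated at 0.972 to 0.990 (log2 CPM, prior count 0.5). In simulated counts for 8427 genes the test recovered 86.5% of 200 genes changed 4-fold in DPLG1 mutants against controls, 87.5% in DPLG4 mutants against controls and 86.5% between the mutants. False calls were 7 of 180, 13 of 188 and 5 of 178 in the same order. The simulation used the spread that edgeR estimated from these data and pooled genes of all levels. It does not give the recovery at counts as low as those of Adh.

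The genes, lists and tests were chosen with earlier results of these data known. Named were the 4 genes, CG12253, overlapping genes, the 5 nearest tested genes on each side, the 5 most alike, genes with at most 3 counts in each DPLG1 mutant library and more in all others, called genes on 2L and the ethanol list. The window of 2 to 4 Mb, its genes, CG10859 and CG30076 were picked after their values were seen. FASN1 and vas were not matched to a line of the files, and Adhr could not be tested. Alternatives were other scalings, other filters, DESeq2 1.42.0, the 6 libraries compared, 10 neighbours on each side, other floors and leaving out each library.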

Additional observations from a re-analysis of the deposited data

How the results depend on the processing

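The drops of CG16957 and asRNA:CR45330 in DPLG1 mutants against controls kept their direction in all 15 alternatives, with fitted log2 differences of -5.35 to -4.63 and -3.47 to -3.11. Both genes were chosen by this contrast, so the kept direction is a description and no support. The drop of Adh kept its direction in the 13 alternatives that held the gene (-7.15 to -5.03, the lowest without DPLG1 mutant replicate 22). Its size depends on the small count that edgeR adds. The call that chose Adh was kept in 5 of 12 alternatives against controls and in 14 of 14 against DPLG4 mutants. Both repeat the contrast that chose the gene and rest on 1 count in DPLG1 mutants, so they are a description and no support. Depth limits Adh most, with 4 to 38 counts outside DPLG1 mutants. No value could be had for Adhr under any alternative, since it had no counts. No paired analysis was made, because no pairing of libraries across groups is given.

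DESeq2 called 280, 228 and 230 genes in DPLG1 mutants against controls, DPLG4 mutants against controls and between the mutants, in place of 9, 36 and 53, and 4, 3 and 3 of the 31 neighbours in place of 1, 0 and 2. Of the ethanol genes it called 0, 1 and 1. With only the 6 libraries compared, 8, 12 and 29 genes were called, and 1 neighbour between the mutants, as with a filter of 1 CPM in 3 libraries, which drops Jhbp13. Leaving out single libraries gave 6 to 16, 11 to 36 and 24 to 51 called genes, 0 to 2, 0 to 0 and 0 to 1 called neighbours, and 0 ethanol genes throughout. In DPLG1 mutants against controls the count was 16 without DPLG1 mutant replicate 7 and 15 without DPLG4 mutant replicate 7. In DPLG4 mutants against controls it was 20, 18 and 19 without DPLG1 mutant replicate 22, 5 or 7, 19 and 14 without DPLG4 mutant replicate 15 or 3, and 17, 11 and 14 without control replicate 1, 2 or 3. Between the mutants it was 24 and 30 without DPLG1 mutant replicate 22 or 5 and 30 without DPLG4 mutant replicate 3. Genes are filtered anew in these fits, and the cause was not tested. The 3 genes at or under 3 counts in DPLG1 mutants only became 5 with a limit of 1 count, 1 with a limit of 10, and 3 to 6 when a library was left out (5 without DPLG1 mutant replicate 7, 6 without control replicate 3).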
